A study of Canis rufus and Canis latrans with 56 samples.

Results

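The genes described here carry peptides to the cell surface on class I molecules. The set holds 9 genes: B2M, HLA-B, HLA-C, TAP1, TAP2, TAPBP, PSMB8, PSMB9 and PSMB10. They were chosen by name and found through the probe annotation, which assigns 14 of the 24354 probes on the array to 8 of them. None of the annotated probes is assigned to PSMB9, and it was not analysed here.

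RNA from whole blood of 13 red wolves (Canis rufus) and 1 coyote (Canis latrans) was measured on human Illumina bead arrays (4 for each animal, spread over 7 slides). Of the wolves 6 were captive (2 females and 4 males) and 7 free-ranging (2 females and 5 males), and the coyote was a free-ranging female. Which wolf had which status or sex could not be read from the labels used here, ages are not given, and these factors were not compared. The blood of all animals was kept in RNAlater. The labels note collection in the wild for 3 wolves, 11136, 11310 and 111080, and for the coyote, and this note was not used as a group. Because the 4 arrays of each animal repeat the same RNA, p values among wolves measure whether animals differed by more than technical repeats did.

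Almost every nucleated cell shows fragments of its own proteins to T cells on class I molecules. The proteasome cuts the proteins, and in blood cells or after interferon its catalytic subunits can be exchanged for PSMB8, PSMB9 and PSMB10, which form the immunoproteasome. The transporter built of TAP1 and TAP2 moves the peptides into the endoplasmic reticulum, where tapasin (TAPBP) helps to load them onto a class I heavy chain paired with B2M, the light chain. Dogs and wolves carry class I heavy chain genes of their own, which are closely related copies without a clear counterpart for each human gene, so HLA-B and HLA-C name the human probe and not a known canid transcript.

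A level below is the log2 intensity of a probe relative to the mean of its array, adjusted for slide and averaged over the 4 arrays of an animal. Intensity doubles with each unit. Levels were not compared between probes, since human probes can bind canid RNA unequally. Background was bounded by 39 liver and skeletal muscle genes, of which HPX had the highest mean level, 0.40. ACTA1 and RYR1, 2 of those 39, still differed among wolves, so a call below the bound can occur. The mean level over the 14 animals lay above this bound for 2064 probes (8.47%). In whole blood, fewer cells of a type and less RNA per cell cannot be told apart. The 95th percentile of an array, a measure of its signal range, ran from 0.332 to 1.24, and averaged over 4 arrays it was narrowest in wolf 11136 (0.381).

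B2M and PSMB10 were the members with a mean level above the background bound. Of the 14 member probes, 2 lay above the bound, B2M at a mean level of 0.77 and PSMB10 at 0.48, and both differed among the wolves. The other 12 lay between -0.24 and 0.20, and no animal exceeded the bound on any of them. By the moderated F test of limma, fitted with slide (Benjamini-Hochberg adjusted p under 0.05), 11.2% of all probes differed among the wolves, 78.1% of those above the bound and 5.02% of those not above it. The 2 calls among members are thus the share seen for most bright probes, and 0 of the 12 dim probes were called. At an unadjusted p under 0.05 the same 2 probes passed. The share of all probes at that threshold is not given here, so this count is not read as many or few. The median share of variance between wolves was 2.21% for the 14 probes, against 6.52% for the whole array and 52.1% for its bright probes.

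**Figure D1:**
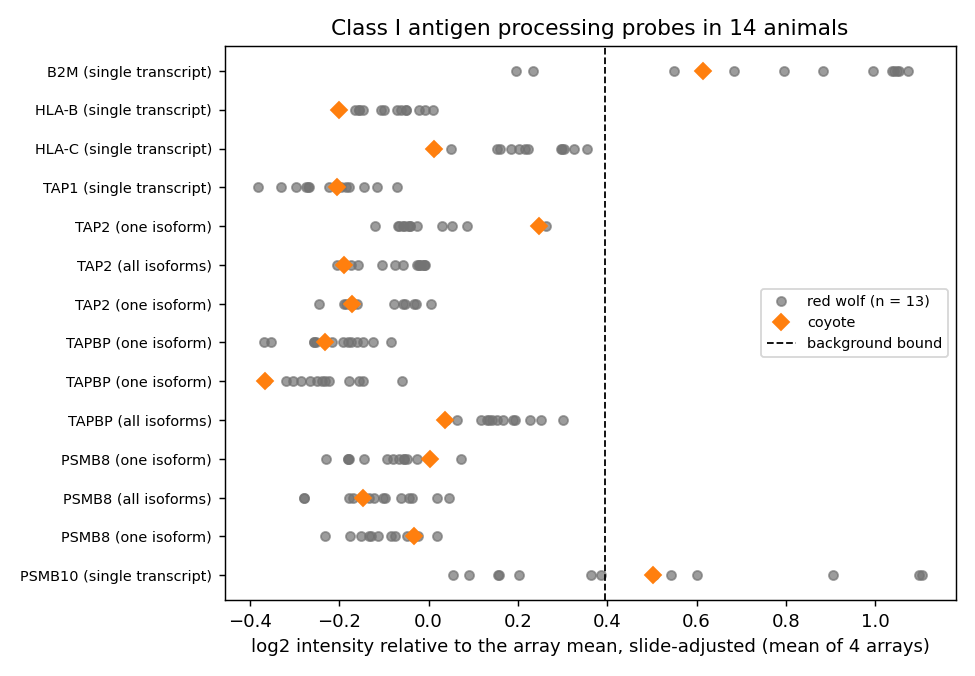
Level of each of the 14 member probes (log2 intensity relative to the array mean, slide-adjusted mean of 4 arrays) in 13 red wolves (grey circles) and the coyote (orange diamond), with the background bound of 0.40 (dashed line). Points right of the line occur for B2M and PSMB10 and for no other probe.

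B2M, the light chain of every class I molecule, stood at 0.79 ± 0.31 (SD, n = 13 wolves). The lowest wolves were 11136 at 0.19 ± 0.24 (SD, n = 4 arrays) and 11310 at 0.23 ± 0.22, both below the bound. Next came wolves 11270 at 0.55 ± 0.09, 10632 at 0.61 ± 0.17, 11206 at 0.68 ± 0.21, 11148 at 0.80 ± 0.47 and 111080 at 0.88 ± 0.06. The other 6 wolves formed a narrow group, with 10537 at 1.00 ± 0.19, 11275 at 1.04 ± 0.13, 10406 at 1.04 ± 0.29, 11274 at 1.05 ± 0.18, 11273 at 1.05 ± 0.35 and 11105 at 1.07 ± 0.31. B2M was thus low in 2 wolves, and 11 of 13 wolves exceeded the bound.

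The difference from the lowest to the highest wolf was 0.88 on the log2 scale, 1.84-fold, and animals accounted for 48.9% of the variance (limma F test, adjusted p = 6e-06). The lowest wolf was below the bound, so this fold starts from a level that cannot be told from background. The order of single wolves is not resolved: the 95% interval of the difference included 0 for each of the 12 pairs of neighbours. The widest step lay between wolves 11310 and 11270, at 0.31 (interval -0.02 to 0.65). On each of the 4 slides that held it, wolf 11136 lay below the mean of the other wolves there, by 0.31 to 0.98, and wolf 11310 by 0.30 to 0.96. Without wolf 11136, whose arrays had the narrowest range, the adjusted p was 0.000689. Without wolf 11310, whose arrays ranked 3rd narrowest among the wolves (mean 95th percentile 0.607), it was 0.000252. Over the 13 wolves B2M had r = 0.573 with the 95th percentile of the arrays (permutation p = 0.0375, rho = 0.308, permutation p = 0.305, two-sided, adjusted over 2 members 0.0751 and 0.609). Without wolves 11136 and 10406 r was 0.528 (permutation p = 0.0938). The B2M call held with all arrays quantile-normalized or scaled to equal SD.

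PSMB10, the immunoproteasome subunit with trypsin-like activity, stood at 0.47 ± 0.37 (SD, n = 13 wolves). It was highest in wolves 11310 at 1.11 ± 0.28 (SD, n = 4 arrays), 11206 at 1.10 ± 0.70 and 11270 at 0.91 ± 0.19. Wolves 10632, 11105 and 111080 followed at 0.60 ± 0.17, 0.54 ± 0.19 and 0.50 ± 0.23. The other 7 wolves were below the bound, with 11274 at 0.39 ± 0.12, 10537 at 0.36 ± 0.23, 11136 at 0.20 ± 0.21, 10406 at 0.16 ± 0.10, 11273 at 0.15 ± 0.21, 11148 at 0.09 ± 0.19 and 11275 at 0.05 ± 0.14. PSMB10 was thus high in 3 wolves and not above the bound in 7.

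The span from wolf 11275 to wolf 11310 was 1.05 on the log2 scale, 2.07-fold, and 55.0% of the variance lay between animals (limma F test, adjusted p = 8.69e-08). Since the lowest wolves were below the bound, the lower end of this fold cannot be told from background. Each of the 12 intervals between neighbours included 0, the widest step being 0.30 from wolf 10632 to wolf 11270 (interval -0.05 to 0.65). Wolf 11310 exceeded the mean of the other wolves on each of its 4 slides, by 0.19 to 1.25, and wolf 11270 by 0.14 to 0.78. The high mean of wolf 11206 owed much to its array on slide 3, at 2.07 after adjustment for slide. Its other 3 arrays averaged 0.77 ± 0.32. Without slide 3 the adjusted p for PSMB10 was 4.02e-08.

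**Figure D2:**
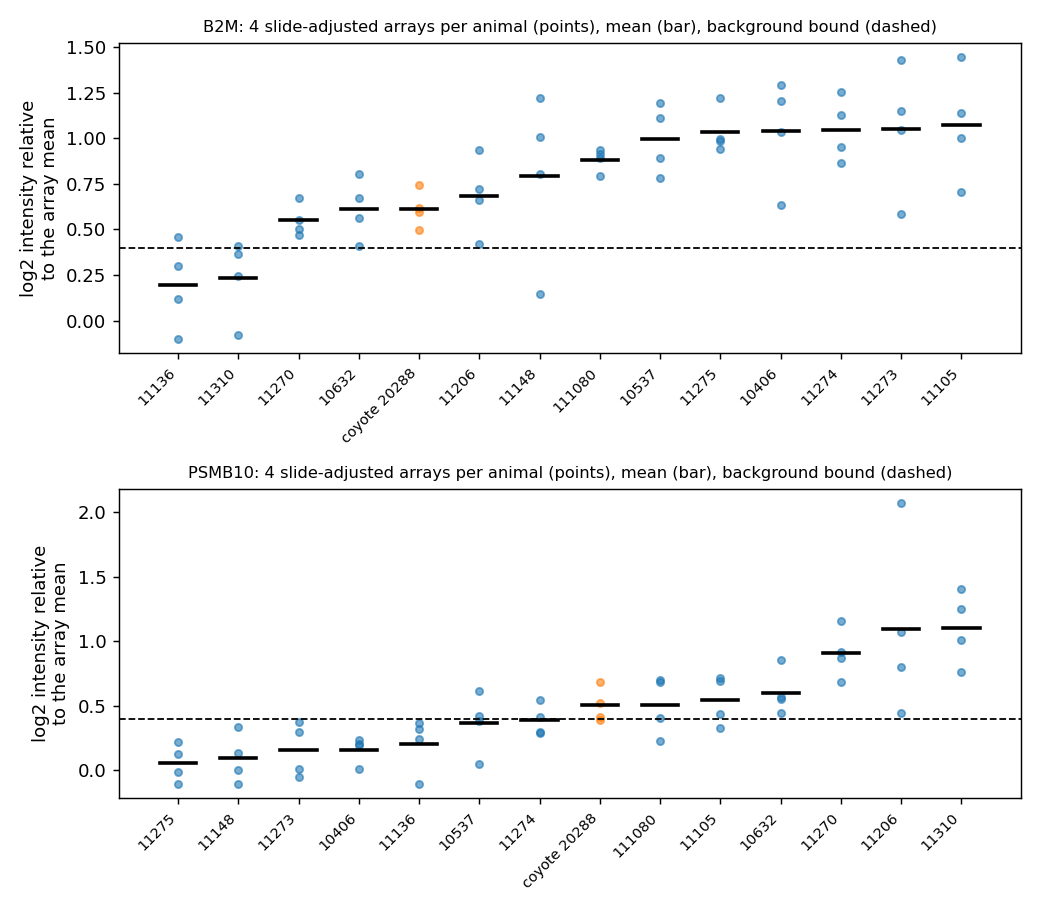
Levels of B2M (top) and PSMB10 (bottom), in log2 intensity relative to the array mean, on the 4 slide-adjusted arrays of each animal (points; wolves blue, coyote orange) with their mean (bar) and the background bound (dashed). Animals are ordered by mean; wolf 11310 is the second lowest for B2M at 0.23 and the highest for PSMB10 at 1.11.

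B2M and PSMB10 tended in opposite directions, without passing the test. Over the 13 wolves their levels had r = -0.494 (two-sided permutation p = 0.0815, and 0.122 when adjusted for 3 pairs) and rho = -0.429 (permutation p = 0.146, adjusted p = 0.219). With wolves 11136 and 11310 left out it was -0.682 (permutation p = 0.0217), and -0.766 with only wolf 11136 left out (adjusted p = 0.0112). On single slides it lay between -0.880 and 0.231. Of all probes above the bound, 56.2% had an r with B2M at least as far from 0. For OAS2 the brightest probe was used, the only one of its probes that was called among the wolves. OAS2, an antiviral sensor induced by interferon, had r = 0.619 with PSMB10 (permutation p = 0.0187, adjusted p = 0.0560; rho = 0.555, permutation p = 0.0530, adjusted p = 0.159) and r = -0.0564 with B2M (permutation p = 0.851, adjusted p = 0.851; rho = -0.231, permutation p = 0.448, adjusted p = 0.448). Leaving out wolves 11310 and 11206 gave r = 0.433 for PSMB10 with OAS2 (permutation p = 0.183), and leaving out 11136 and 11310 gave -0.260 for B2M (permutation p = 0.459). Within slides these r ran from 0.200 to 0.923 and from -0.416 to 0.290. An r with PSMB10 at least as far from 0 as that of OAS2 was seen for 32.8% of all probes above the bound. For B2M this share was 95.6%.

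The heavy chain probes were below the background bound. HLA-C stood between 0.01 in wolf 10632 and 0.35 in wolf 10406, with a median of 0.21, and its SD over wolves of 0.10 was smaller than the array SD of 0.19 (limma adjusted p = 0.534). HLA-B ran from -0.17 in wolf 11136 to 0.01 in wolf 10537, with a median of -0.07 (adjusted p = 0.924). On the human heavy chain probes no animal exceeded the bound, which does not show that signal was absent. The values say nothing of the level of the canid heavy chains, whose match to the probes was not examined.

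The transporter and loading probes were also dim. TAP1 ran from -0.38 in wolf 10537 to -0.07 in wolf 11310 (adjusted p = 0.483). TAP2 has 3 probes, 1 for all isoforms and 2 for single isoforms, with wolf means of -0.07, -0.01 and -0.12 and adjusted p values of 0.842, 0.295 and 0.614. The isoform probe at -0.01 was highest in wolf 11136 at 0.26 and passed in 1 alternative, quantile normalization (adjusted p = 0.0125), still below the bound. TAPBP has 3 probes as well. The probe for all isoforms ran from 0.04 in wolf 11136 to 0.30 in wolf 11270, and the other 2 had wolf means of -0.21 and -0.23, with adjusted p values of 0.803, 0.595 and 0.587.

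PSMB8, the immunoproteasome subunit with chymotrypsin-like activity, lay below the bound on its 3 probes, with wolf means between -0.11 and -0.09. The probe for all isoforms had the smallest p among the dim members (adjusted p = 0.274), and ran from -0.28 in wolf 111080 to 0.05 in wolf 11136. The 3 wolves high in PSMB10, 11310, 11206 and 11270, stood on that probe at -0.10, -0.12 and -0.17, within the range of the others. A shared change of PSMB8 and PSMB10 could thus not be read from these probes.

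Other genes of the pathway were mostly dim too. Of 32 measured genes for other class I chains, peptide loading and trimming, the proteasome activator and transcriptional control, 2 differed among the wolves, PDIA3 and ERAP1 (6.25%, against 11.2% of all probes), and 1, PDIA3, lay above the bound. PDIA3, a disulfide isomerase of the peptide-loading complex, ran from 0.25 in wolf 11273 to 1.52 in wolf 111080 (limma adjusted p = 2.98e-13). ERAP1, which trims peptides in the endoplasmic reticulum, ran from -0.04 in wolf 11136 to 0.47 in wolf 10406 (adjusted p = 0.000907), and its mean of 0.27 was below the bound. Without wolf 11136 the ERAP1 call ended (adjusted p = 0.0617). Among the dim genes were the chaperones CALR at a mean level of 0.19 and CANX at -0.27, and the interferon-controlled regulators IRF1 at -0.03 and NLRC5 at -0.28.

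More of the other proteasome core subunits lay above the bound. Of the constitutive catalytic subunits that the immunoproteasome replaces, PSMB5 differed among the wolves (1 of 3), from 0.49 in wolf 11273 to 2.17 in wolf 111080, a 3.20-fold span (limma adjusted p = 2.20e-19), while PSMB6 and PSMB7 had mean levels of -0.17 and -0.22. Of the 11 other subunits of the core, 5 lay above the bound and the same 5 differed. PSMA1 spanned 4.34-fold, from 0.65 to 2.77, and PSMB3 3.95-fold, from 1.65 to 3.63. PSMA7 spanned 2.89-fold, PSMB1 2.57-fold and PSMB2 1.74-fold, with adjusted p values between 6.97e-25 and 3.23e-08 for the 5. The lowest wolves for PSMA7 (0.20), PSMB1 (-0.11) and PSMB2 (0.28) were below the bound, so these 3 folds start from levels that cannot be told from background. Among bright probes such calls were the rule (78.1%). Wolf 11273 was lowest for PSMB5, PSMA1, PSMB2 and PSMB3, and wolf 11206 or 11310 highest for all 5 of the other core subunits. PSMA1 has 2 further isoform probes, at -0.28 and -0.31, that were not called.

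PSMB10 went with these core subunits over the 13 wolves. In a family of 16 pairs of B2M or PSMB10 with the 8 pathway genes that differed, chosen after their values were seen, r with PSMB10 was 0.908 for PSMA7 (permutation p = 5e-05, adjusted p = 0.0008; rho = 0.830, permutation p = 0.00094, adjusted p = 0.00501). It was 0.854 for PSMB2 (permutation p = 0.00025, adjusted p = 0.0016; rho = 0.797, permutation p = 0.00193, adjusted p = 0.00746) and 0.842 for PSMB1 (permutation p = 0.00056, adjusted p = 0.00224; rho = 0.764, permutation p = 0.00342, adjusted p = 0.00912). It was 0.770 for PSMB3 (permutation p = 0.00232, adjusted p = 0.00742; rho = 0.786, permutation p = 0.00233, adjusted p = 0.00746). With the 2 wolves farthest from the median of each subunit left out, r was 0.789, 0.721, 0.868 and 0.753 for these 4, and within slides it ran from 0.303 to 0.949, 0.398 to 0.903, 0.569 to 0.870 and 0.527 to 0.923.

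For PSMB5 and PSMA1 the relation was weaker, with r = 0.631 (permutation p = 0.0234, adjusted p = 0.0468; rho = 0.610, permutation p = 0.0302, adjusted p = 0.0588) and r = 0.640 (permutation p = 0.0202, adjusted p = 0.0461; rho = 0.615, permutation p = 0.0289, adjusted p = 0.0588). Both calls ended with quantile normalization, at r = 0.446 and 0.465 (adjusted p = 0.146 and 0.136), and under most of the other alternatives. PDIA3 had r = 0.728 with PSMB10 (permutation p = 0.00562, adjusted p = 0.0150; rho = 0.863, permutation p = 0.00034, adjusted p = 0.00408), and without wolf 11310 the adjusted p was 0.0636. When wolves 111080 and 11310, the farthest from its median, were left out, r was 0.874. Of all named probes above the bound, 34.9% had r of at least 0.5 with PSMB10, and the median r was 0.02.

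**Figure D3:**
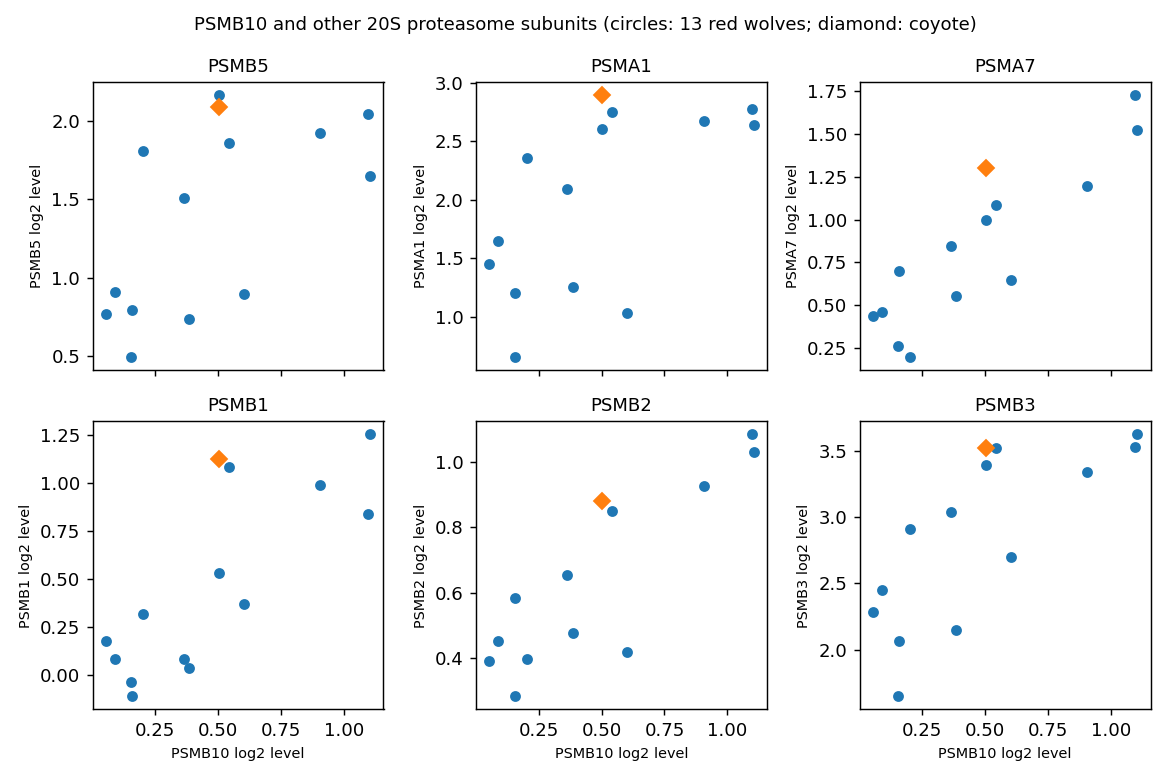
Level of 6 other proteasome core subunits (vertical axes) against the level of PSMB10 (horizontal axes), both in log2 intensity relative to the array mean, in 13 red wolves (blue circles) and the coyote (orange diamond). The 3 wolves with PSMB10 at 0.91 or more also had high levels of PSMA7, PSMB2 and PSMB3; for PSMB5 and PSMA1 the scatter was wider.

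No r of B2M with the 6 core subunits passed the test. For PSMA7 and PSMB2 it was -0.240 (permutation p = 0.431, adjusted p = 0.431; rho = -0.181, permutation p = 0.553, adjusted p = 0.553) and -0.273 (permutation p = 0.365, adjusted p = 0.389; rho = -0.269, permutation p = 0.373, adjusted p = 0.398). With wolves 11206 and 11310 left out these were 0.166 (permutation p = 0.634) and 0.0394 (permutation p = 0.915). The r with PSMB5, PSMA1, PSMB1 and PSMB3 was -0.447, -0.442, -0.498 and -0.489 (permutation p = 0.128, 0.133, 0.0827 and 0.0914, adjusted p = 0.163, 0.163, 0.136 and 0.136). The rho for these 4 was -0.467, -0.335, -0.478 and -0.467, with adjusted p between 0.146 and 0.301. When all arrays were quantile-normalized to a common distribution, the latter 4 r were -0.810, -0.764, -0.682 and -0.793 (adjusted p = 0.00252, 0.00466, 0.0168 and 0.00403), and all 4 also passed with arrays scaled to equal SD. PSMB1 passed without wolf 11136 or wolf 11105 (r = -0.643 and -0.706), and PSMB3 without wolf 11105 (r = -0.646). The r of B2M with PDIA3 was -0.425 (permutation p = 0.145, adjusted p = 0.166), with rho = -0.401 (permutation p = 0.176, adjusted p = 0.217). It passed in 2 of 17 alternatives, and with quantile normalization r was -0.699. The r of PSMB10 with ERAP1, -0.483 (permutation p = 0.0936, adjusted p = 0.136; rho = -0.599, permutation p = 0.0330, adjusted p = 0.0588), was -0.794 without wolf 11136 (adjusted p = 0.00739). ERAP1, whose mean was below the bound, went with B2M at r = 0.860 (permutation p = 0.0003, adjusted p = 0.0016; rho = 0.835, permutation p = 0.00051, adjusted p = 0.00408), and at 0.791 (permutation p = 0.0039) without wolves 11136 and 10632. Of all named probes above the bound, 50.8% had r of at least 0.5 with B2M.

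The summed levels of red cell and platelet marker lists moved with B2M. The red cell list, with 7 of 11 measured genes above the bound, had a summed level between 8.90 in wolf 11310 and 15.9 in wolf 11105, and r = 0.890 with B2M (permutation p = 1e-05, the smallest these permutations can give, adjusted over 14 pairs 0.00014; rho = 0.885, permutation p = 0.00014, adjusted p = 0.00196). Without wolves 11105 and 11310 r was 0.854 (permutation p = 0.00048), and within slides it ran from 0.656 to 0.988. The globin genes HBD, HBA1, HBA2 and HBB were all lowest in wolf 11310. HBA1, HBA2 and HBB were highest in wolf 11105 and HBD in wolf 11273, where it stood at 6.85 against 5.41 in wolf 11310. BNIP3L, which acts in the removal of mitochondria from maturing red cells, ran from 1.95 in wolf 11310 to 4.33 in wolf 11274, while the membrane protein genes SLC4A1 and EPB42 and the haem synthesis gene ALAS2 were below the bound at -0.23, -0.23 and -0.08. The platelet list, with 1 of 7 genes above the bound (PF4, at 1.48), had a summed level between 0.80 in wolf 11136 and 2.14 in wolf 11273, and r = 0.914 with B2M (permutation p = 2e-05, adjusted p = 0.00014; rho = 0.841, permutation p = 0.00063, adjusted p = 0.00441). Without wolves 11136 and 11310 r was 0.798 (permutation p = 0.0031), and within slides it ran from 0.264 to 0.942. B2M was lowest in the 2 wolves with the lowest sums of both lists. The part of red cell and platelet RNA in the B2M result was not tested. The median r of B2M with all named probes above the bound was 0.51, so that many bright probes shared its pattern.

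The summed level of a monocyte marker list moved with PSMB10. That list, with 2 of 10 genes above the bound (TYROBP and FCER1G, FCER1G only through the coyote's 2.03, against 0.28 ± 0.32 for wolves), had a summed level between -0.89 in wolf 11273 and 0.64 in wolf 11206. It had r = 0.862 with PSMB10 (permutation p = 0.00019, adjusted p = 0.000887; rho = 0.736, permutation p = 0.00547, adjusted p = 0.0255). Without wolves 11206 and 11310 r was 0.689 (permutation p = 0.0203), and within slides it ran from 0.167 to 0.889. The defining markers CD14, CSF1R and LYZ were below the bound, at -0.16, -0.07 and -0.20. FCER1G varied most over wolves among the listed genes and was highest in wolf 111080. TYROBP followed with an SD of 0.16 and was not called among the wolves (limma adjusted p = 0.177). FCER1G (adjusted p = 6.61e-11) and AIF1 (adjusted p = 0.00258) were called, 2 of the 10 genes (20%, against 11.2% of all probes). AIF1 had an SD of 0.15 and a mean level of 0.22, below the bound, and was highest in wolf 11310 at 0.62. The r thus describes the sum and not each marker. The part of monocyte RNA in the PSMB10 result was not tested. The other 11 pairs with T cell, NK and cytotoxic, B and plasma cell, neutrophil and the remaining lists had adjusted p values between 0.153 and 0.996 for r. The smallest was that of PSMB10 with the red cell list, r = -0.571 (permutation p = 0.0437; rho = -0.566, permutation p = 0.0479), which passed without wolf 11136 (r = -0.712, adjusted p = 0.0383), with quantile normalization (-0.732, 0.0164) and with arrays scaled to equal SD (-0.760, 0.0142). Without wolf 11310, PSMB10 with the T cell list (r = -0.669) and B2M with the B and plasma cell list (r = -0.687) had an adjusted p of 0.0496. With no slide term, B2M passed with the NK and cytotoxic list (r = 0.718, adjusted p = 0.0177) and with the B and plasma cell list (r = -0.703, adjusted p = 0.0369). Above the bound lay 1 of 13 T cell genes, 2 of 11 NK and cytotoxic genes, 0 of 8 B and plasma cell genes and 1 of 11 neutrophil genes.

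**Figure D4:**
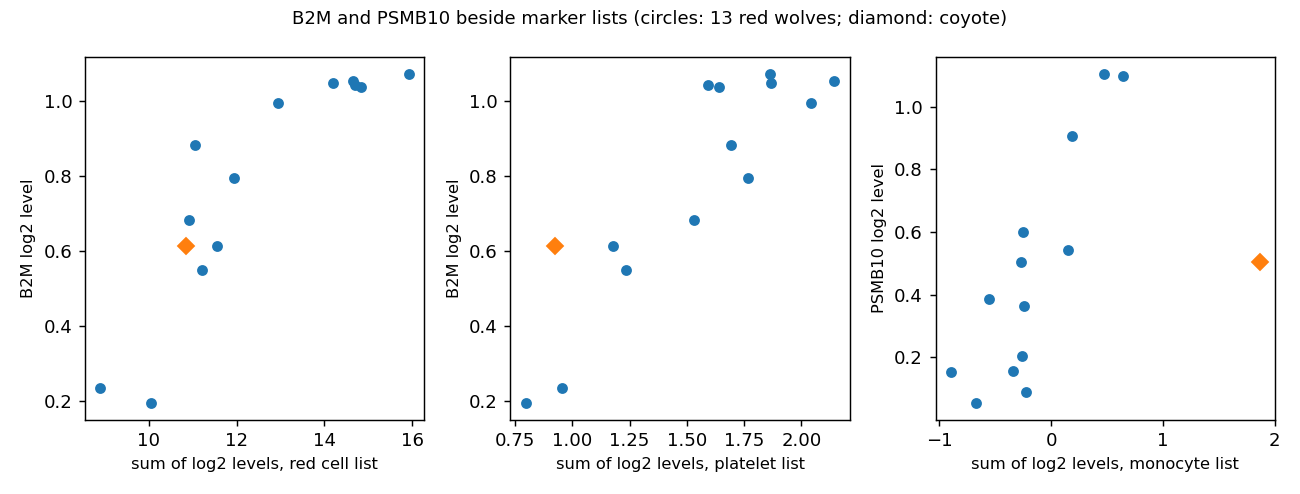
Level of B2M against the summed log2 level of the red cell list (left) and the platelet list (middle), and of PSMB10 against that of the monocyte list (right), in 13 red wolves (blue circles) and the coyote (orange diamond). The wolves at 0.19 and 0.23 for B2M had the lowest sums among wolves on the left and middle. The coyote's monocyte sum of 1.86 lay outside the wolves' range, with its FCER1G level alone at 2.03.

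The genes whose pattern over the 13 wolves was most like that of B2M, by Pearson r among 1627 named probes above the bound, were TONSL (0.977), a DNA replication repair protein, SELENOO (0.968), a mitochondrial selenoprotein, and CD276 (0.966), an immune checkpoint ligand. TONSL and CD276 were lowest in wolf 11136, at 1.27 and 3.41, and SELENOO in wolf 11310, at 0.80. Most like PSMB10 were FKBP11 (0.958), a prolyl isomerase of secretory cells, ILK (0.938), an integrin-linked kinase, and NSMCE4A (0.935), a subunit of a DNA repair complex. FKBP11 was highest in wolf 11310 at 2.08, and ILK and NSMCE4A in wolf 11206 at 1.39 and 1.37. These were picked as the highest of many values and are descriptions.

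Class II presentation and interferon genes give the setting. Of 14 class II genes none passed the F test (0%, against 11.2% of all probes), and HLA-DMA, which helps to load class II molecules, was the only one above the bound, between 0.38 in wolf 11136 and 0.78 in wolf 11273 (limma adjusted p = 0.547). At an unadjusted p under 0.05 also 0 of the 14 class II genes passed, a count without the share of all probes at that threshold beside it. HLA-DMA passed with slide 7 left out (adjusted p = 0.0473) and with the fourth array of each animal left out (0.00983). Of 26 measured interferon genes 4 differed (15.4%, near the 11.2% of all probes). OAS2 ranged from 0.08 in wolf 11273 to 2.99 in wolf 11206. Next were wolves 11105 at 1.63 and 111080 at 1.40, which were 5th and 6th for PSMB10. OAS1 ran from 1.66 in wolf 11136 to 2.94 in wolf 11105, and IFITM3 and OASL were both lowest in wolf 11136. Further probes of OAS2, at mean levels of 0.17 and -0.23, of OAS1, at 0.07 and -0.17, and of OASL, at -0.10, were not called. The OASL call (adjusted p = 0.0408) was lost in 21 of 32 alternatives and the IFITM3 call (adjusted p = 0.0241) in 11 of 32.

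No difference between the coyote and the wolves passed the test in any member. Of the member probes none was called by limma's test of the coyote against the 13 wolves (0 of 14, against 0.00411% of all probes), and 1 of 14 had an unadjusted p under 0.05, against 3.74% of all probes. B2M stood at 0.61 ± 0.10 (SD, n = 4 arrays) in the coyote and 0.79 ± 0.31 in the wolves, a difference of -0.17 (SE 0.26, 95% interval -0.71 to 0.37, adjusted p = 0.998). PSMB10 stood at 0.50 ± 0.13 and 0.47 ± 0.37, a difference of 0.03 (SE 0.27, interval -0.53 to 0.59, adjusted p = 0.998). These intervals leave room for differences of the size seen between wolves. The coyote ranked 5th from the lowest of 14 animals for B2M and 8th for PSMB10.

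The probe with an unadjusted p of 0.0146 was an isoform probe of TAP2, which read 0.25 for the coyote against -0.01 ± 0.10 for the wolves (difference 0.25, SE 0.10). Wolf 11136 was as high, at 0.26. The coyote lay below the range of all wolves on 4 of the 14 probes, those of HLA-B (-0.20), HLA-C (0.01) and 2 of TAPBP (-0.37 and 0.04), and above it on 0, against 6.40% and 5.76% of all probes. All 4 are below the bound. For HLA-C the difference was -0.20 (SE 0.11, interval -0.43 to 0.03) and for HLA-B -0.12 (SE 0.08, interval -0.27 to 0.04). A sequence difference under a human probe and a difference in expression cannot be told apart here. No gene of the pathway, core or class II lists passed either; the coyote's PDIA3 level was 1.68 against 0.77 ± 0.37 for wolves (difference 0.91, SE 0.30, unadjusted p = 0.00489).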

How the data were processed

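The deposited values are log2 intensities per probe; per the labels' design text the authors took log base 2 and centred each array on the median, and the submitters' processing notes name BeadStudio 1.5.0.34. In the table each array has mean 0. No source used here states whether background was subtracted, and detection p values were not used. Precision is limited by the array number. Of 24354 probes 18339 carry 1 gene symbol; no canid sequence was used.

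Animal, slide and position come from the labels. Wolves were compared with limma 3.58.1 in R 4.3.3 (animal and slide, eBayes with intensity trend, moderated F test, Benjamini-Hochberg over all probes, 0.05). For the coyote, 1 slide-adjusted value per animal was fitted with 12 residual degrees of freedom, its spread assumed to be that of the wolves. Correlations used 100000 permutations and are two-sided. Listed genes are represented by their brightest probe. Named are all members, genes of the class I, proteasome, class II and interferon lists where called or above the bound, and the 3 most similar probes per called member. CALR, CANX, IRF1, NLRC5, PSMB6, PSMB7 and the genes of cell type lists were named after their values were seen. Members and lists were chosen with earlier results of these data known. The alternatives were 3 other normalizations, no slide term, position, no trend, a filter on dim probes, the coyote's arrays in the fit, averaged probes, and leaving out 1 array of every animal, 1 wolf or 1 slide.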

Additional observations from a re-analysis of the deposited data

How the results depend on the processing

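The number of member probes called among the wolves was 2 when 1 array of every animal, 1 wolf or 1 slide was left out, and 2 or 3 under the other settings; B2M and PSMB10 were called in all 32 alternatives, with adjusted p of at most 0.00147 and 0.00477. The third was the TAP2 isoform probe after quantile normalization. No member probe was called for the coyote in any of 31 alternatives, and averaging a gene's probes changed no count of member genes. The calls of the 5 other core subunits, PSMB5 and PDIA3 held in all 32. With dim probes left out 1790 probes differed among wolves in place of 2732, fewer being tested. With dim probes left out 1 other pathway gene was called in place of 2, since ERAP1 lay below the bound and was not tested there. With no slide term 1 other pathway gene was called in place of 2, and 1 interferon gene in place of 4. The cause of the change with no slide term was not tested. For the coyote, all probes called numbered 2 with 75th-percentile centring, 2 with position added and 0 with no intensity trend, in place of 1. Those omissions gave 1629 to 2770 probes among wolves, 1 to 3 other pathway genes, 2 to 4 interferon genes, 0 to 1 class II genes and, for the coyote, 1 to 4 probes. The r of B2M with PSMB10 ran from -0.766 to -0.298 and that of PSMB10 with OAS2 from 0.407 to 0.724 (adjusted p from 0.0326 to 0.273) as single wolves were left out. PSMB10 with OAS2 passed without wolf 11136 (0.595) or 11310 (0.724). The labels give arrays no replicate numbers. Slide, which they do give, was a term of the fit, and wolves on a shared slide were compared for B2M and PSMB10. Sets of 4 arrays leave the order of neighbouring wolves open, and 12 of 14 probes lay below the background bound.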

Other observations

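Single arrays disagreed within some animals. For B2M, 1 of the 4 slide-adjusted arrays of wolf 11148 stood at 0.15 and its highest at 1.22, a range as wide as that between wolves. For PSMB10 the arrays of wolf 11206 ran from 0.45 to 2.07. The deposited values of wolf 11136 for B2M ran from -0.12 to 0.20 and those of wolf 11310 from 0.14 to 0.25.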
